A study of Homo sapiens with 42 samples.

Results

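The response to HIF-1α was measured in 786-O cells by comparing 3 poly-A RNA-seq libraries of a line that overexpresses HIF-1α with 3 libraries of WT cells prepared in the same batch. These 6 libraries were chosen by their labels, HIF-1a and WT of batch 2, out of 42 libraries in the whole series. 786-O is a human clear cell renal cell carcinoma line. It lacks functional VHL, so its HIF-2α is stable at normal oxygen, and its own HIF-1α is truncated and not functional. Both groups therefore carry the VHL defect and endogenous HIF-2α, and they differ in a stably integrated transgene. In the HIF-1α line an L30 promoter, chosen in the study for weak expression, drives wild-type HIF-1α with a V5-HaloTag at its N-terminus. WT cells carry no transgene, and the 3 HIF-1α libraries come from 1 line, so effects of HIF-1α and of selecting this line cannot be told apart. The labels give no hypoxic treatment. The study compared endogenous, overexpressed, mutated and domain-swapped HIF subunits. From the same batch, the lines with HIF-2α and with a HIF-2α/1α chimera (3 libraries each) were used to place the response, and from batch 1 the HIF-1α line and WT cells (3 libraries each).

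HIF is a heterodimer of an oxygen-labile α subunit, HIF-1α or HIF-2α, and the stable subunit HIF-1β, encoded by ARNT. With oxygen present, prolyl hydroxylases mark the α subunit and VHL, the recognition part of a ubiquitin ligase, binds it for degradation. Without oxygen or without VHL the dimer binds DNA at hypoxia response elements with the core ACGTG or GCGTG and activates genes of glucose uptake, glycolysis, pH regulation, angiogenesis and mitophagy. HIF-1α is best known for glycolytic and mitophagy genes, and in clear cell renal carcinoma HIF-2α is regarded as the oncogenic isoform.

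The 6 libraries held 88530985 to 109642159 counted reads. A floor of 3 counts per library, below which a gene is not taken as detected, equals 0.0274 to 0.0339 CPM (counts scaled to one library size). The 10 most abundant genes took 6.57% to 6.69% of the counts in WT libraries and, slightly more, 6.72% to 6.87% in HIF-1α libraries. Mitochondrial genes took 1.11% to 1.53%, with overlapping ranges in both groups. Between pairs of libraries, the chi-square per degree of freedom over genes was 10.2 to 13.7 among WT libraries. Among HIF-1α libraries it was 4.51 between replicates 1 and 2, and 14.2 and 13.4 between replicate 3 and these, so replicate 3 lay farther from the other two. The labelled cell type was checked against its markers. PAX8, the kidney lineage factor, had 29226, 26586 and 26327 normalized counts in the WT libraries and, in the HIF-1α libraries, 23767, 22911 and 23352, and the summed count of 11 kidney and carcinoma markers was 382797 to 386600 and 416413 to 422888. LRP2, 1 of these 11, had no read in WT cells. A mean under 10 reads was found for 2 of the 11 in WT cells and 1 in the HIF-1α line. The defining blood and endothelial markers CD3E, PTPRC, PECAM1 and CDH5 had at most 4 counts in any of the 6 libraries. The summed count of 12 markers of other cell types, which include ACTA2 described below, was 189 to 227 in WT cells and 616 to 636 in the HIF-1α line. Of 28724 genes tested, the median SD of the log2 count between replicates was 0.0750 in WT cells and 0.0737 in the HIF-1α line, over the 13923 genes with a mean count of at least 50. Values below are normalized counts (TMM-scaled reads per library of average depth), listed for replicates 1, 2 and 3. Log2 changes are fitted differences, given ± SE where an error is printed (n = 3 per group). A gene rose or fell, and is counted as called, where edgeR's quasi-likelihood test gave an adjusted p-value (Benjamini-Hochberg) no higher than 0.01 and the change was at least 2-fold. Libraries of a group are biological replicates in the study's description.

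Reads on HIF1A (chr14:61695513-61748259, hg38) checked the labels first. HIF1A had 265, 305 and 314 counts in the WT libraries and 13790.4, 13126 and 12838 in the HIF-1α libraries. The groups were far apart, by a log2 change of 5.49 ± 0.08, and reads of the transgene and of the endogenous gene are counted together. In the line with the HIF-2α/1α chimera, which carries the C-terminal part of HIF-1α, HIF1A had 9659.6, 9521 and 9589 counts, and in the HIF-2α line 842, 858 and 1089.9. Of the other subunits, none rose or fell. EPAS1, which encodes HIF-2α, went from 12125, 12347 and 13607 counts to 17532, 16625 and 15259.9, a small log2 change of 0.38 ± 0.06 with an edgeR adjusted p of 6.2e-07. ARNT, the gene of HIF-1β, changed by -0.09 ± 0.06 on the log2 scale, and its paralogue ARNT2 by 0.00. HIF3A was too low to be tested. Of the 5 genes of the hydroxylases and VHL 1 rose, against 3.91% of all tested genes. It was EGLN1, the main prolyl hydroxylase of HIF-α, from 1219.8, 1165 and 1205 to 2767, 2504 and 2196 counts, a log2 change of 1.06 ± 0.08. Without HIF-1α replicate 1 its log2 change was 0.98, under the 2-fold limit. EGLN3, a hydroxylase known to be induced by HIF, changed by 0.94 ± 0.07 and did not reach 2-fold, except at 1.07 without HIF-1α replicate 3. EGLN2, HIF1AN and VHL had log2 changes of 0.06, 0.07 and -0.03.

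At the 2-fold limit many genes were higher and few were lower in the HIF-1α line than in WT cells. Expression was higher than in WT cells for 1123 genes (3.91% of those tested) and lower for 138 (0.480%), so that 89.1% of the called genes rose. The median log2 change was 0.03 over all tested genes. Changes of the risen genes were also larger, with a median log2 change of 2.06 compared with -1.34 for the fallen genes. At least 4-fold changes were found for 578 risen and 10 fallen genes, and at least 8-fold changes for 315 and 2. Many small changes passed the p-value limit as well. With the adjusted p-value alone, 2677 genes were higher (9.32%) and 2238 were lower (7.79%), a nearly balanced split, and the genes under 2-fold among them were 1554 higher and 2100 lower. In bulk RNA, a higher level in every cell and a high level in part of the cells cannot be told apart.

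**Figure D1:**
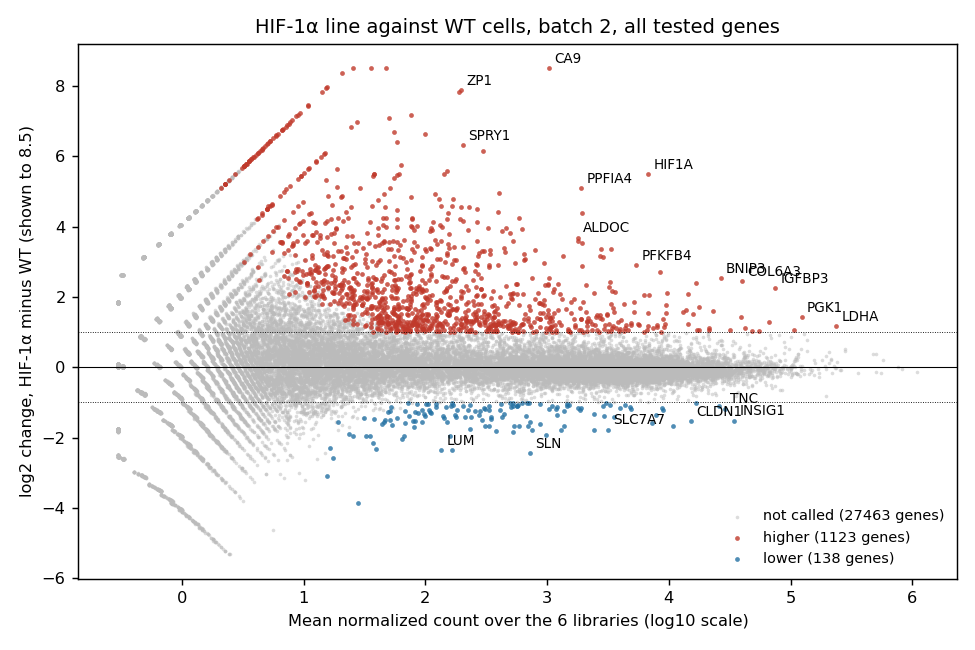
Log2 change of each tested gene between the HIF-1α line and WT cells (vertical axis, shown to 8.5) against its mean normalized count over the 6 libraries (log10 scale). Red points are the 1123 genes that rose, blue points the 138 that fell and grey points the rest, with dotted lines at 2-fold. Red points reach far higher than blue points reach low, and HIF1A, CA9 and PPFIA4 stand out among well-counted genes.

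The risen genes included many that WT cells hardly express, but such genes rose no more often than tested genes as a whole. Their median level in WT cells was 29.4 counts, against 430 for the fallen genes and 34.6 for all tested genes. Of 11256 tested genes with a mean under 10 counts in WT cells 354 rose (3.14%, against 3.91% of all tested genes). These were 31.5% of the risen genes, and 58 risen genes had no read in any WT library. No gene with a mean under 10 counts in WT cells fell, a level at which a 2-fold loss is hard to detect. Among genes with 10 to 100 counts in WT cells, 8.78% rose and 0.476% fell. From 100 to 1000 counts these shares were 5.69% and 1.78%, from 1000 to 10000 counts 1.29% and 0.514%, and above 10000 counts 0.794% and 0.496%. More genes rose than fell in each class, and the excess was smallest among the most abundant genes. The classes use the WT counts that also enter the comparison, and changes are harder to detect at few counts. These shares are therefore a description. Of 15805 protein-coding genes tested 927 rose (5.87%) and 115 fell (0.728%). Of 6769 long noncoding RNAs tested 146 rose (2.16%) and 18 fell (0.266%).

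**Figure D2:**
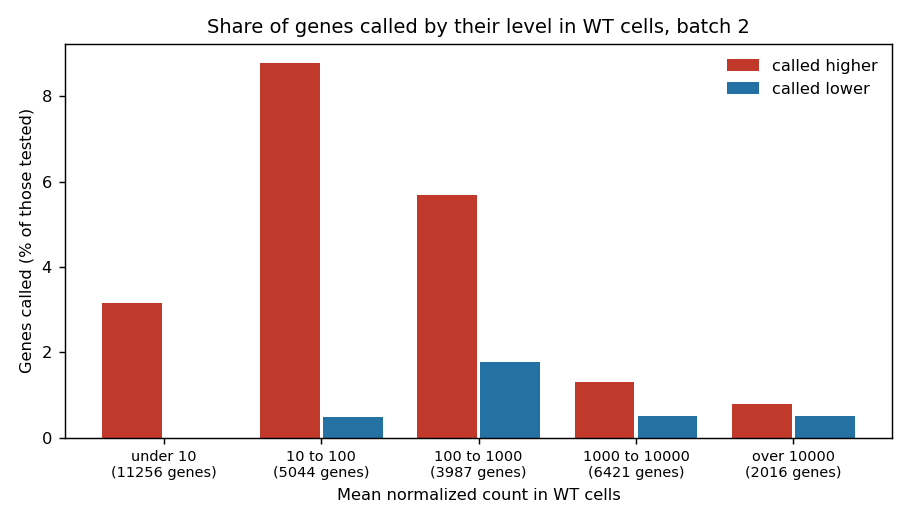
Share of tested genes that rose (red bars) or fell (blue bars) in the HIF-1α line, in % of the genes of each class of mean normalized count in WT cells. The share of risen genes is highest at 8.78% in the class of 10 to 100 counts and is above the share of fallen genes in every class.

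The largest relative change among protein-coding genes with a mean of at least 50 counts over the 6 libraries was that of CA9, which encodes carbonic anhydrase IX, the membrane enzyme that helps hypoxic cells to export acid. No WT library had a read on CA9, while the HIF-1α libraries had 2107, 2131 and 1949 counts. Against a floor of 3 counts per WT library CA9 was at least 739-fold higher (edgeR adjusted p = 1.2e-32). It was low in both lines compared here as well, at 7.55 ± 2.17 counts with HIF-2α and 4.58 ± 1.23 with the HIF-2α/1α chimera (SD, n = 3 each). Of the 8 genes for acid-base proteins CA9 was the only one that rose, against 3.91% of all tested genes. CA12, another membrane carbonic anhydrase, had a log2 change of 0.25, CA2 one of -0.71 and CA13 one of -0.70, and the bicarbonate and proton transporters lay between -0.17 and 0.36.

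CA9 and 11 more protein-coding genes made up the 12 with the largest rises, and most of them were close to silent in WT cells. ZP1, a zona pellucida glycoprotein gene, went from 0, 2.42 and 2.01 to 440.3, 393 and 330 counts, a ratio of 252 (95% exact interval 108 to 778). OSBPL1A, a sterol-binding protein of endosomes, went from 0.977, 0.807 and 3.02 to 361, 354 and 410.1, a ratio of 244 (95% exact interval 104 to 754). MXRA5 rose with a ratio of 165 (95% exact interval 56.1 to 803), KISS1R, the kisspeptin receptor gene, with 163 (95% exact interval 44.6 to 1349), FAM43A with 118 (95% exact interval 40.1 to 576) and BICDL2 with 93.9 (95% exact interval 36.3 to 346). These intervals cover counting error only, and their lower ends are all far above 1. PTPRN, which encodes the dense-core vesicle protein IA-2, rose from 0, 1.61 and 4.03 counts to 231, 212 and 147. SPRY1, an inhibitor of receptor tyrosine kinase signalling, rose from 2.93, 5.65 and 6.04 to 393, 405 and 404, and GPRC5C, an orphan receptor gene, from 4.88, 6.46 and 13.1 to 711, 590 and 442. GFRA2, a co-receptor for neurturin, rose from 0, 10.5 and 7.05 to 326, 311 and 255 and C14orf132 from 0, 2.42 and 4.03 to 132, 112 and 124. In each of these genes the lowest HIF-1α library was far above the highest WT library.

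In numbers of reads, not divided by gene length, 3 of the 6 largest gains were those of glycolytic genes. LDHA, which makes lactate from pyruvate, gained most, from 139526, 145587 and 151993 to 330459, 325340 and 322283 counts, a log2 change of 1.16 ± 0.04. PGK1 followed, from 65302, 66742 and 68548 to 181907, 181735 and 175567 (1.43 ± 0.05). IGFBP3, a secreted binding protein of insulin-like growth factors, rose from 22937, 23292 and 31792 to 123188, 125442 and 122059 (2.25 ± 0.07). These 3 genes show no overlap between the groups, and the WT libraries of IGFBP3 spread most, with replicate 3 the highest. PGAM1, a glycolytic mutase, rose from 66470.1, 68239 and 74204 to 141759, 142129 and 148988, SYNPO, an actin-associated protein, from 40128, 37748 and 39256 to 98909.9, 98159.5 and 87467, and COL6A3, a chain of collagen VI, from 12619, 12923 and 11538 to 69072, 68579 and 63570.4. All risen genes together gained 1.71% of the counts of a library, and all fallen genes lost 0.240%. The rise of PGAM1 was close to the limit, at a log2 change of 1.05, and 0.99 without WT replicate 1.

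Among the metabolic gene lists glycolysis had the most risen members. Of 19 tested genes of glycolytic enzymes 8 rose, against 3.91% of all tested genes, and none fell by edgeR or DESeq2, and the median log2 change was 0.94 compared with 0.03 over all tested genes. With the adjusted p-value alone 15 were higher and 1 lower, against 9.32% and 7.79% of all tested genes. At an unadjusted p under 0.05 the counts were 15 and 2. The brain-type aldolase gene ALDOC changed most, from 243, 213 and 323 to 3708, 3433 and 2806 counts (3.68 ± 0.15). ENO2, the neuronal enolase, rose from 5457, 5171 and 5532 to 29381, 28752 and 26786 (2.39 ± 0.06), and HK2, the inducible hexokinase, from 5008, 4823 and 4744 to 11736, 11089 and 10475 (1.19 ± 0.06). PGK1, LDHA and PGAM1 are described above, and PFKL, the liver phosphofructokinase, rose by 1.06 on the log2 scale. ALDOA, the muscle-type aldolase, changed by 1.11, but it overlaps an annotated gene on the same strand, and reads shared by overlapping genes were not counted, so its level of 2739 counts in WT cells is uncertain. Just under 2-fold were GPI (0.94) and TPI1 (0.94), the isomerases of the upper pathway. Smaller log2 changes were found for ENO1, GAPDH and PKM, at 0.38, 0.47 and 0.39. PFKM, the muscle phosphofructokinase, was lower by the p-value alone, at -0.43.

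A few regulators and transporters of glucose also rose. PFKFB4, a kinase that makes the allosteric activator of phosphofructokinase, rose from 1380, 1310 and 1121 to 10548, 9644 and 8402 counts (2.91 ± 0.09). PFKFB3, the other hypoxia-induced isoform, rose from 11449.9, 10828 and 12191 to 35450.2, 35269 and 32976 (1.59 ± 0.05). PDK1, which blocks entry of pyruvate into the citric acid cycle, rose from 1476, 1549 and 1492 to 5457, 5529.7 and 4751 (1.80 ± 0.08). These were 3 of 8 PFKFB and PDK kinases (3.91% of all tested genes rose), with a median over the list of 0.57. Of 7 glucose and lactate transporters only SLC2A12 rose, from 9.77, 8.88 and 2.01 to 34.9, 41 and 30.5 counts, and without WT replicate 3 or HIF-1α replicate 2 its edgeR adjusted p was 0.0199 and 0.0119. The main glucose transporter SLC2A1 was already at 98949 counts in WT cells and changed by 0.38, SLC2A3 by 0.43 and the lactate exporter SLC16A3 by 0.87. SLC16A7, a lactate importer, was lower by the p-value alone (-0.92), and past 2-fold without WT replicate 1 (-1.08) or HIF-1α replicate 2 (-1.01). Of 14 genes of glycogen metabolism 6 were higher by the adjusted p-value alone, 1 was lower and 7 did not pass. Of all tested genes 9.32% were higher and 7.79% lower in this way. The median log2 change of the list was 0.76, and 3 of its genes rose, against 3.91% of all tested genes. They were PPP1R3C, a glycogen-targeting phosphatase subunit, from 207, 275 and 180.3 to 1384, 1361 and 1115, the branching enzyme gene GBE1 from 4912, 5157 and 5058 to 13679.8, 12964 and 12368, and PPP1R3E at a log2 change of 1.02. For PPP1R3E the change was 0.93 without WT replicate 3 and 0.95 without HIF-1α replicate 1. GYS1, glycogen synthase, changed by 0.89.

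The mitophagy genes BNIP3 and BNIP3L rose, and no gene of the respiratory chain or the citric acid cycle was called. BNIP3, a mitophagy receptor, rose from 7651, 7960.3 and 7819.7 to 46412, 47265 and 42559 counts (2.54 ± 0.05, edgeR adjusted p = 5.4e-34), and its relative BNIP3L from 2485, 2823 and 2635 to 11376, 11134 and 10523 (2.06 ± 0.06). MXI1, an antagonist of MYC known to restrain mitochondrial biogenesis, rose from 1187, 1130 and 1316 to 3185, 3234 and 2597 (1.31 ± 0.09). NDUFA4L2, known as a hypoxia-induced mitochondrial protein, fell instead, from 135, 131 and 147 to 86.3, 47.9 and 63.9. Its call did not survive leaving out WT replicate 3 (-0.999), HIF-1α replicate 2 (-0.86) or HIF-1α replicate 3 (-1.03), each with an edgeR adjusted p above 0.01, and it overlaps SHMT2 on the opposite strand, which was counted without regard to strand. These were 3 risen genes and 1 fallen gene of 10 tested, against 3.91% and 0.480% of all tested genes, with COX4I2 too low to be tested. The median log2 change of the list was 0.06, near that of all tested genes. Of 34 subunits of the respiratory chain and 15 enzymes of the citric acid cycle none rose or fell by edgeR or DESeq2, and their median log2 changes were -0.01 and -0.07. By the adjusted p-value alone, 0 and 1 were higher and 4 and 6 lower, against 9.32% and 7.79% of all tested genes. At an unadjusted edgeR p under 0.05, 3 and 1 were higher and 10 and 7 lower. Several cycle enzymes were thus slightly lower.

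Of 17 angiogenic and vasoactive factors 5 rose, against 3.91% of all tested genes, and the median log2 change of the list was 0.74. ANGPTL4, a secreted inhibitor of lipoprotein lipase, went from 43.9, 42 and 83.6 to 731, 755 and 1106 counts (3.96 ± 0.17), with the highest value in HIF-1α replicate 3. STC1, a secreted glycoprotein, went from 471, 514 and 496 to 5409, 5227 and 4531 (3.36 ± 0.10), and PGF, placental growth factor, from 31.3, 40.4 and 58.4 to 264, 251 and 254 (2.57 ± 0.17). VEGFB, at 1.04, and the vasodilator gene ADM, at 1.02, were just past 2-fold, and ADM was under it without WT replicate 2 (0.97) or HIF-1α replicate 1 (0.99). VEGFA, the main angiogenic ligand, went from 15262, 14151 and 12544 counts to 29258, 28737 and 25626, a log2 change of 0.99 ± 0.06 just short of the 2-fold limit. It was past the limit without WT replicate 1 (1.03) or 2 (1.01) or HIF-1α replicate 3 (1.06). The co-receptor NRP1 changed by 0.84.

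Matrix enzymes and chromatin enzymes also had called members. LOX, which cross-links collagen, rose from 1277, 1173 and 1274 to 6171, 5847 and 4746 counts (2.17 ± 0.11). P4HA1, a subunit of collagen prolyl hydroxylase, rose from 7697, 8111 and 8785 to 24476, 23749 and 22382 and PLOD2, a lysyl hydroxylase, from 34750.3, 38412 and 35823 to 79757, 78336 and 65926. PLOD2 was under 2-fold without WT replicate 1 (0.98) or HIF-1α replicate 1 (0.99). These were 3 of 11 collagen hydroxylases and lysyl oxidases (against 3.91% of all tested genes), with a median log2 change of 0.64. Of 12 histone demethylases 2 rose, against 3.91% of all tested genes. They were the H3K9 demethylases KDM4B (1.19 ± 0.06) and KDM3A (1.03 ± 0.06), and KDM3A was at 0.99 without WT replicate 1. The median over the 12 was 0.35. Of 15 genes of the hypoxia stress response 3 rose, against 3.91% of all tested genes, with a median of 0.78. They were FAM162A, from 1056, 982 and 1085 to 5525, 6001 and 5102 counts, ANKRD37, from 61.5, 29.9 and 32.2 to 155, 162 and 166, and NDRG1, from 26258, 25868 and 28128 to 63526, 61110.1 and 48899.9. ZNF395 (0.98), INSIG2 (0.96) and VLDLR (0.85) lay just under the limit, and without HIF-1α replicate 3 the list had 5 risen members, with ZNF395 at 1.06 and INSIG2 at 1.04. A published hypoxia signature of 15 genes had 6 risen of 14 tested, against 3.91% of all tested genes, and a median of 0.97. All its risen members are also in the lists above.

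**Figure D3:**
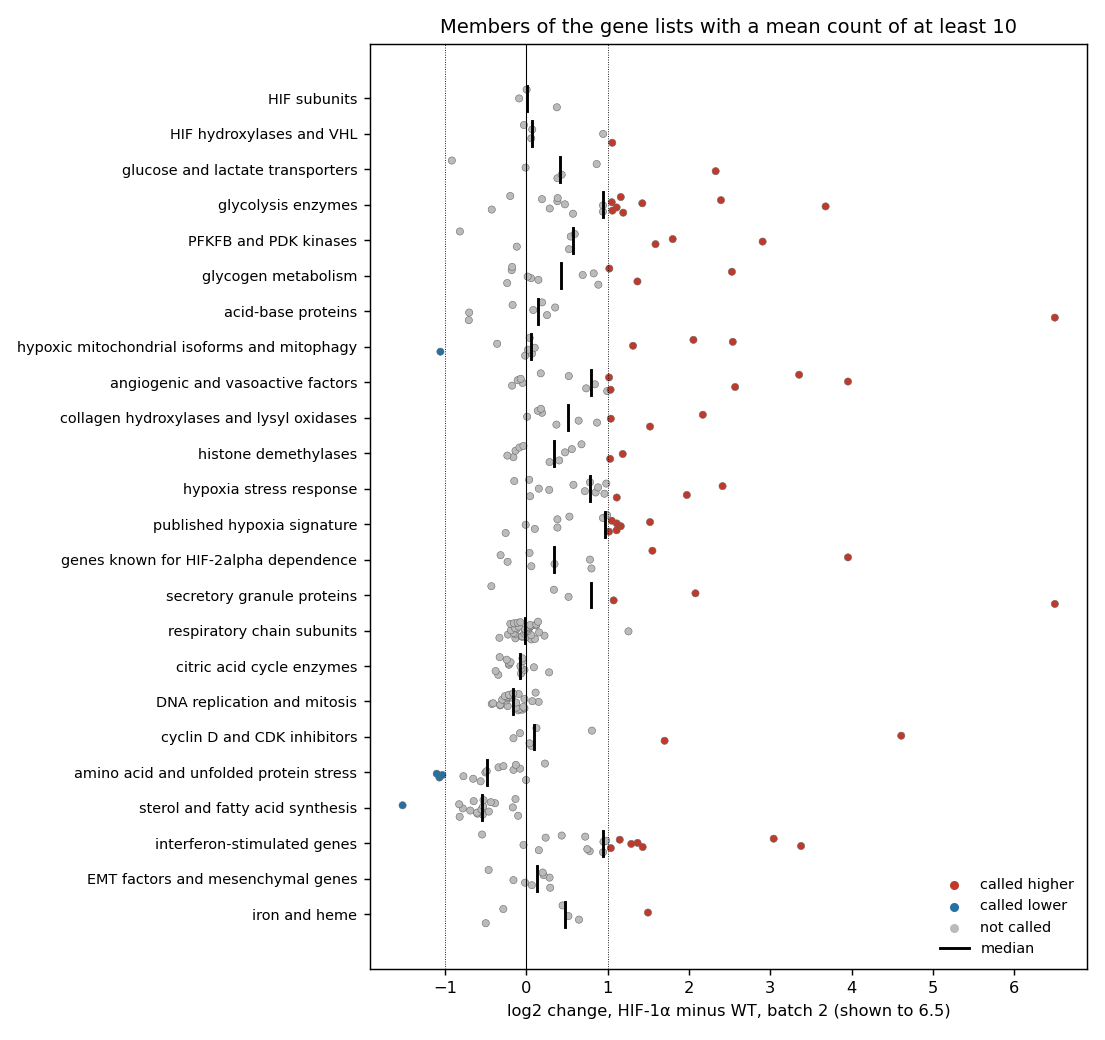
Log2 change between the HIF-1α line and WT cells (horizontal axis, shown to 6.5) of the members of 24 gene lists that have a mean count of at least 10, with HIF1A left out. Each point is a gene, red if it rose, blue if it fell and grey if not called, and the black bar is the median of the genes drawn, which can differ from the medians in the text over all tested members. Lists of glycolysis and hypoxia genes lie to the right of 0 and sterol and amino acid genes to its left. Respiratory chain and citric acid cycle genes have medians just under 0.

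Promoters of 5 risen genes are shown because they hold the core of the hypoxia response element in different numbers. The 250 bases before the RefSeq start (GRCh38.p14) are printed 5′ to 3′ on the strand of the gene. Capitals mark ACGTG and GCGTG on either strand (on the other strand CACGT and CACGC), and the palindrome CACGTG counts as a match on each strand. The windows are CA9 at chr9:35673678-35673927 (plus strand), BNIP3 at chr10:131981924-131982173 (minus strand), PGK1 at chrX:78103998-78104247 (plus strand), LDHA at chr11:18394313-18394562 (plus strand) and PPFIA4 at chr1:203026241-203026490 (plus strand). PPFIA4 encodes a liprin, a scaffold protein, and LDHA has more than 1 listed start, of which the first is shown.
CA9: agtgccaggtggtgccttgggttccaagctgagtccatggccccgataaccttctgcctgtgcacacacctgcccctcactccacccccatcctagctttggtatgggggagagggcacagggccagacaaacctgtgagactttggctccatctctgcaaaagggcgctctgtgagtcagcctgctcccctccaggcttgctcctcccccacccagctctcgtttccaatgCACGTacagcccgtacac
BNIP3: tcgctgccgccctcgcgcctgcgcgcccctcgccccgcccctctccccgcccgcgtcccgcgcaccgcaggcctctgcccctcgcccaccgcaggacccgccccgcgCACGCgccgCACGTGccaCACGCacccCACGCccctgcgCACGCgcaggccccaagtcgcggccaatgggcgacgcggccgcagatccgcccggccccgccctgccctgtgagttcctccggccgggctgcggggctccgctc
PGK1: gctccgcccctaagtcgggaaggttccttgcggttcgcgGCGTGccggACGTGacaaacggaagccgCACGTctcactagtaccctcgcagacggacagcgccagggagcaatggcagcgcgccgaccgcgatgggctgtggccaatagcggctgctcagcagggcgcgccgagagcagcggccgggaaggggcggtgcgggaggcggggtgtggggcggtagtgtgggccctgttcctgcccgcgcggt
LDHA: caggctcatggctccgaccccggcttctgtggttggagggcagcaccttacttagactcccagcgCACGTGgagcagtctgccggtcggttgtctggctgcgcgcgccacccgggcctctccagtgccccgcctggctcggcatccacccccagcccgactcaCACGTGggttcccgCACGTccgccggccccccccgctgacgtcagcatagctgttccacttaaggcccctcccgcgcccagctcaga
PPFIA4: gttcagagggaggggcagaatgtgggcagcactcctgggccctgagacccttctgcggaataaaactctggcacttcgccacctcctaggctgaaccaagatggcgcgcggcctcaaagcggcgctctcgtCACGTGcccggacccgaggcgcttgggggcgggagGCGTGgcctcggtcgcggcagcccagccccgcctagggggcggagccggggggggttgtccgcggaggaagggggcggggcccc

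CA9 has 1 match, which begins 18 bases before the start. BNIP3 has 6, all between 143 and 104 bases before the start, PGK1 has 3, LDHA 5 and PPFIA4 3. Such matches are common in promoters. Over 19309 RefSeq windows of 300 bases (250 before to 50 after the start) of 13520 tested genes, 57.3% held at least 1 of the 2 motifs. The share was 46.4% (95% Wilson interval 43.4% to 49.3%) of 1111 windows of 725 risen genes and 53.0% (45.04% to 60.8%) of 151 windows of 96 fallen genes. With ACGTG alone the shares were 24.1% of all windows, 19.4% of those of risen genes and 19.9% of those of fallen genes. With GCGTG alone they were 45.2%, 36.4% and 41.1%. Some genes have several windows, so windows are not independent, and the shares are given with no test.

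The fallen genes with the largest changes encode proteins of diverse kinds. SLN, which encodes sarcolipin, a regulator of a calcium pump, fell most among the 12 protein-coding genes with the largest losses, from 1176, 1108 and 1388 to 257, 209 and 211 counts (-2.44 ± 0.13). LUM, the matrix proteoglycan lumican, fell from 168, 183 and 319 to 31, 63.5 and 36.2 and INHBE, an inhibin chain, from 219.7, 239 and 369.7 to 64, 46.9 and 52.4. In each of these 3 genes the highest HIF-1α library was well under the lowest WT library. The cytokine gene TNF fell from 252, 216 and 284 to 58.2, 48.8 and 87.7, the amine oxidase gene MAOA from 1186, 1174 and 1126 to 295, 343 and 370, ALOX5AP, which serves leukotriene synthesis, from 1979, 1996 and 2018 to 481, 540.2 and 721, and the amino acid transporter subunit SLC7A7 from 4902, 4782 and 4959 to 1334, 1431 and 1525. HES7, ALOXE3, SGPP2, PAPPA2 and KCNJ15 fell, with log2 changes of -2.03, -1.95, -1.93, -1.84 and -1.80. In numbers of reads the largest losses were those of INSIG1, the endoplasmic reticulum anchor of the sterol sensor, from 47694, 50842 and 54309.6 to 18437, 17994 and 16811 (-1.52 ± 0.05), and TNC, the matrix protein tenascin C, from 41987, 42128 and 35828 to 17285, 17895 and 17786 (-1.18 ± 0.05). The serine synthesis enzyme PSAT1 (-1.10), the tight junction gene CLDN1 (-1.54), the EGF-family ligand EREG (-1.03) and the adhesion molecule MCAM (-1.67) followed. EREG was at -0.96 without WT replicate 2 and -0.99 without HIF-1α replicate 2.

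Lists of lipid synthesis and of amino acid stress had medians below 0. Of all tested genes 0.480% fell, and 7.79% were lower by the adjusted p-value alone. Of 18 genes of sterol and fatty acid synthesis INSIG1 was the only one that fell by 2-fold, but 16 were lower by the adjusted p-value alone, none was higher, and the median log2 change was -0.54. HMGCS1, an early enzyme of cholesterol synthesis, changed by -0.82 ± 0.06, the regulator gene SREBF1 by -0.83 ± 0.06, DHCR7 by -0.78 and fatty acid synthase FASN by -0.65. Of 16 genes of the amino acid and unfolded protein responses 3 fell, namely ASNS, CHAC1 and PSAT1, 10 were lower by the adjusted p-value alone, and the median was -0.41. SESN2 changed by -0.77, TRIB3 by -0.65 and ATF4, the transcription factor of this response, by -0.56. ASNS had only 104, 117 and 121 counts in WT cells and overlaps a gene on the same strand, and it lost its call without WT replicate 2 or 3 or HIF-1α replicate 1, where its log2 change was -1.01, -0.98 and -0.74. CHAC1 was at -0.96 without HIF-1α replicate 1. None of 26 genes of DNA replication and mitosis rose or fell by edgeR or DESeq2, while 13 were lower by the adjusted p-value alone and 15 at an unadjusted p under 0.05, with a median of -0.17. Of 10 cyclin D and CDK inhibitor genes tested 2 rose, against 3.91% of all tested genes. CDKN1A, the p21 inhibitor, rose from 7866, 7949 and 9301 to 29634, 28092 and 23908 counts (1.70 ± 0.07). CDKN1C, the p57 inhibitor, rose from 0.977, 1.61 and 1.01 to 31, 38.1 and 29.6, a ratio of 26.7 (95% exact interval 10.1 to 100). CCND1, encoding cyclin D1, changed by 0.06.

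Long noncoding RNAs changed in both directions. The 4 with the largest rises were AC005906.3, from 0.977, 5.65 and 1.01 to 138, 86.9 and 72.5 counts, LINC01224, from 7.81, 3.23 and 12.1 to 228, 202 and 263, SIRLNT, from 16.6, 8.88 and 4.03 to 143, 152 and 73.4, and AC078883.1, from 27.3, 21 and 10.1 to 210.5, 242 and 158. AC078883.1 lies on the strand opposite PDK1 and ITGA6, and without strand its reads and theirs cannot be told apart. The largest losses were those of AC008632.1 (-1.58), AC016723.1 (-1.53), AC124798.1 (-1.52) and AC245041.1 (-1.48). No role is given here for these RNAs.

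The HIF-1α line was then set against the HIF-2α line of the same batch, which carries HIF-2α behind the same promoter and tag. The study reports that expression from this promoter varied even in stable lines. Here and for the chimera below, effects of the protein, of its level and of selecting each line cannot be told apart. Between these lines 634 genes (2.21% of those tested) were higher with HIF-1α and 456 (1.59%) were higher with HIF-2α. Of the 1123 genes that had risen over WT cells, 231 were higher with HIF-1α, 115 were lower, and 777 were not called. Of the 138 fallen genes 28 were higher with HIF-1α than with HIF-2α and 10 were lower. Both comparisons use the same HIF-1α libraries, so this split is a description. The 6 risen genes with the largest excess over HIF-2α were CA9, PTPRN, AL161431.1, CLDN2, SPRY1 and RTL9. PTPRN had 4.97, 3.43 and 5.81 counts in the HIF-2α line, a difference of 5.34 ± 0.45 on the log2 scale (edgeR adjusted p = 2.5e-13). CLDN2, a pore-forming claudin, had 123, 132 and 212 in WT cells, 692, 828 and 777 with HIF-1α and 29.8, 50.3 and 34.9 with HIF-2α. SPRY1 had 23.9, 21.7 and 15.1 with HIF-2α, above WT cells but far below the HIF-1α line. The noncoding AL161431.1 and the retrotransposon-derived RTL9 differed by 4.88 and 4.09.

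Other risen genes were far higher with HIF-2α. GFRA2 had 14693, 13975 and 13801 counts in the HIF-2α line against 326, 311 and 255 with HIF-1α (-5.57 ± 0.09 on the log2 scale). CPE, carboxypeptidase E of secretory granules, rose from 186, 224 and 237 in WT cells to 1029, 944 and 767 with HIF-1α and had 27463, 28694 and 23865 with HIF-2α. The chemokine receptor gene ACKR3 rose to 1862, 1946 and 1662 with HIF-1α and had 34162, 32454 and 31252 with HIF-2α. AC005906.3, ITIH5 and PRODH completed the 6 largest, at differences of -3.68, -3.60 and -3.53. These genes thus rose with HIF-1α, but to a small part of the level in the HIF-2α line. Of 10 genes known for dependence on HIF-2α, 2 rose with HIF-1α over WT cells (against 3.91% of all tested genes), namely ANGPTL4 and the semaphorin receptor gene PLXNA2 (1.55). Compared with HIF-2α, 7 of the 10 were lower with HIF-1α, against 1.59% of all tested genes. The study presents PLXNA2, HSD3B7 and TGFA as HIF-2α responsive and describes their RNA in these lines, so they are no independent evidence. TGFA had 27444, 27908 and 25698 counts with HIF-1α and 86461, 88704 and 79656 with HIF-2α, and HSD3B7 had 559, 593 and 531 and 7148, 6583 and 6119.8. HSD3B7 changed by 0.04 over WT cells, with the sign turned to -0.048 and -0.01 without WT replicate 1 or 2. EPO was at 0, 4.84 and 0 counts in WT cells and 0.970, 5.86 and 0.954 with HIF-1α, too few to give it a direction.

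Some glycolytic genes and the mitophagy gene BNIP3 also differed between these lines. Of 19 glycolysis genes 4 were higher with HIF-1α than with HIF-2α and none was lower, against 2.21% and 1.59% of all tested genes. Of the 10 genes of the mitochondrial and mitophagy list BNIP3 alone was called. ALDOC had 277, 263 and 152 counts in the HIF-2α line, within the range of WT cells or below it, and PGK1 had 74585, 67657 and 68766. GPI and PGAM1 were the others, at 1.30 and 1.07. LDHA, at 289670, 263574 and 263807, and ENO2, at 18998, 17792 and 17844, had levels between those of WT cells and the HIF-1α line, with differences of 0.26 and 0.64 that were under 2-fold. BNIP3 had 6197, 5756 and 6121 counts with HIF-2α, all below the WT libraries, and FAM162A had 710.2, 649.6 and 681, also below them. For PDK1 the 3 HIF-2α libraries, at 1468, 1702 and 1289.7, lay around the WT level. Of the 17 angiogenic and vasoactive factors 1 was higher with HIF-1α and 5 were lower, against the same shares of all tested genes. Among those lower were PGF at 3386, 3032 and 2234 and VEGFA at 72386, 76565 and 68444 counts in the HIF-2α line. Of 8 genes for which the study describes RNA results, 6 rose over WT cells, but they were picked on these samples and are no independent evidence. Among them PPFIA4 had 127, 124 and 71.5 counts in WT cells, 3961, 3877 and 3324 with HIF-1α and 477, 576 and 503 with HIF-2α.

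**Figure D4:**
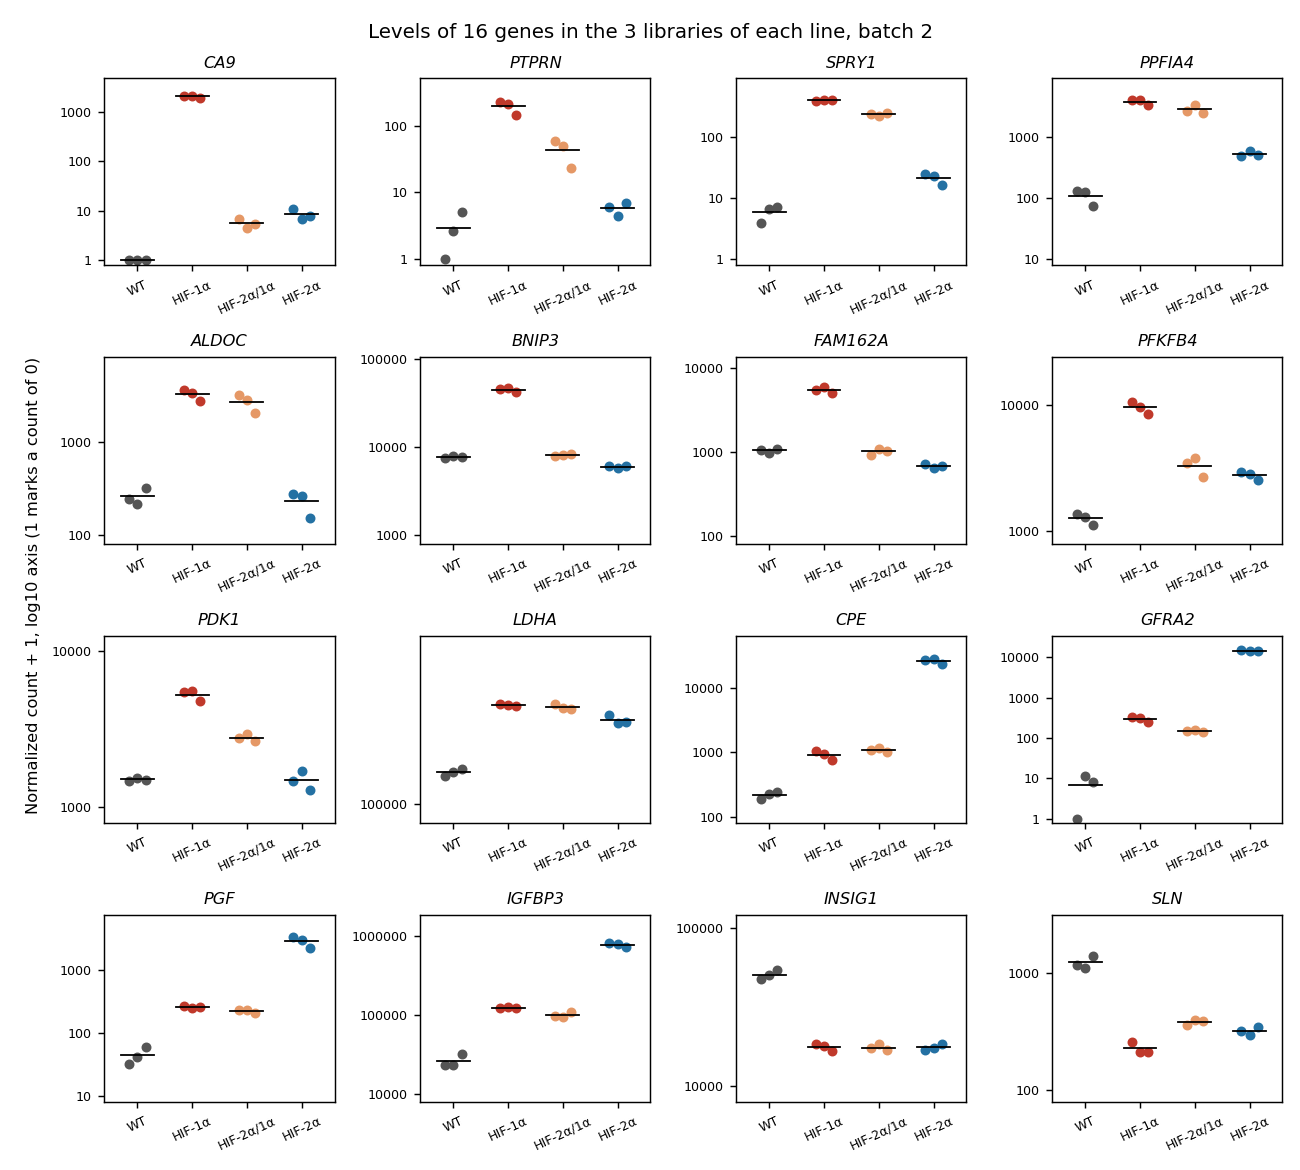
Normalized count + 1 (log10 axes that differ between panels) of 16 genes in each of the 3 libraries (points) of WT cells, the HIF-1α line, the line with the HIF-2α/1α chimera and the HIF-2α line, with the mean as a bar. CA9, BNIP3 and FAM162A are high in the HIF-1α line alone among these lines, PPFIA4, ALDOC and SPRY1 also with the chimera, and CPE, GFRA2, PGF and IGFBP3 are highest with HIF-2α.

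In the chimera HIF-2α/1α, the N-terminal part with the DNA-binding and dimerization domains comes from HIF-2α and the disordered C-terminal part from HIF-1α. Compared with it, the HIF-1α line was higher in 138 genes (0.480%) and lower in 21 (0.0731%). The lower count depended on the settings. It was 6 with DESeq2, 12, 10 and 11 without HIF-1α replicate 1, 2 or 3, and 10 without HIF-2α/1α replicate 3. Of the 1123 genes risen over WT cells 128 were higher with HIF-1α than with the chimera, 2 were lower and 993 were not called. The median difference over the risen genes was 0.43 on the log2 scale, against 0.02 over all tested genes, and it is a description because the same HIF-1α libraries chose the genes. CA9 and BNIP3 were among those higher with HIF-1α. BNIP3 had 8019.8, 8175 and 8423 counts with the chimera (difference 2.47 ± 0.05) and FAM162A had 928, 1095 and 1026 (difference 2.44 ± 0.08), both close to WT cells. EGLN1 had 1202, 1190.4 and 1288 and PFKFB4 3468, 3777 and 2687. ALDOC, at 3281, 2885 and 2096, and PPFIA4, at 2645, 3315 and 2430.4, were not called, at differences of 0.27 ± 0.12 and 0.41 ± 0.10. Of the 138 genes fallen over WT cells 1 was lower with HIF-1α than with the chimera and none was higher.

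Batch 1 gave a second measurement of the same contrast with no library in common. Its RNA was extracted with a column kit rather than TRIzol and its libraries were built with another protocol, and the 6 libraries held 46864256 to 101186554 counted reads. In batch 1, 764 genes were higher (3.26% of 23410 tested) and 121 lower (0.517%) in the HIF-1α line than in WT cells, and fitting the replicate number as a block gave 985 (4.21%) and 173 (0.739%). The lower count was 78 without WT replicate 1 and 69 without HIF-1α replicate 2 of batch 1. Of the 1123 genes risen in batch 2, 623 had risen in batch 1 too, which is 55.5% of the batch 2 list and 81.5% of the batch 1 list. Of 1117 that were tested in batch 1, 1099 had a log2 change above 0. Of the 138 fallen genes 72 had fallen in batch 1 (52.2% and 59.5% of the lists), and 137 had a change below 0. Under the replicate block of batch 1 the shared genes were 747 risen (66.5% of the batch 2 list and 75.8% of the 985) and 91 fallen (65.9% and 52.6% of the 173). No gene called in batch 2 was called in the other direction in batch 1, with or without the block. Median log2 changes of the risen genes were 2.04 in batch 2 and 1.97 in batch 1, and those of the fallen genes -1.34 and -1.40. The 5 genes named next were picked as examples, and their values were close. BNIP3 changed by 2.54 and 2.72, PPFIA4 by 5.10 and 4.57, PFKFB4 by 2.91 and 3.02, LDHA by 1.16 and 1.19, and INSIG1 by -1.52 and -1.32. PGK1, at 1.43 and 1.45, had an edgeR adjusted p of 0.013 in batch 1 and was not called there, but was called with the block (adjusted p = 1.6e-06). Other genes described above differed more. PTPRN changed by 6.64 in batch 2 and by 9.19 in batch 1 with the block. It had hardly any counts in WT cells of batch 2, and its difference between the batches was not called. NDUFA4L2, which fell in batch 2, changed by -0.09 in batch 1 with the block (edgeR adjusted p = 0.889), so its fall was not found there.

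**Figure D5:**
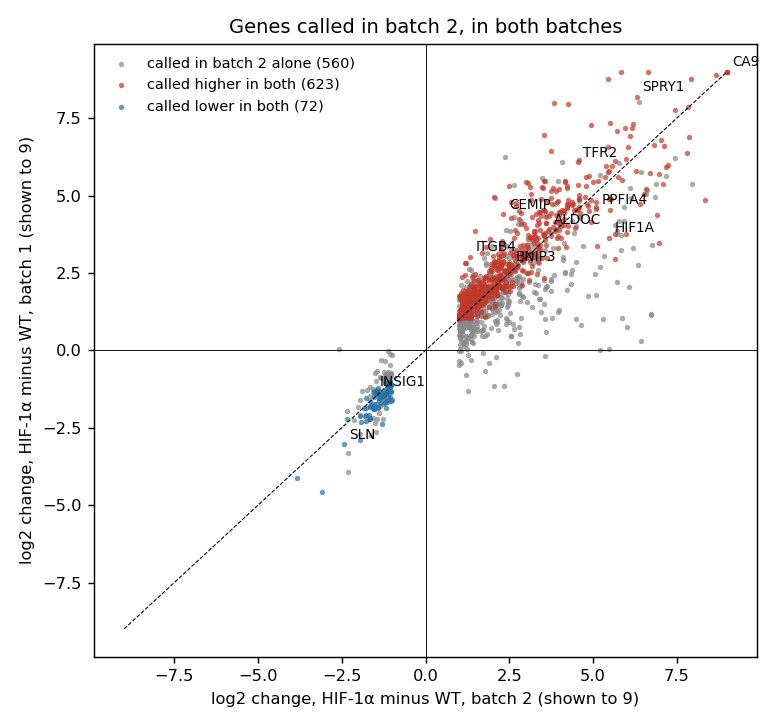
Log2 change between the HIF-1α line and WT cells in batch 1 (vertical axis) against batch 2 (horizontal axis, both shown to 9) for the genes called in batch 2 and tested in batch 1. Red and blue points are the 623 and 72 genes called in the same direction in both batches, grey points those called in batch 2 alone, and the dashed line marks equal changes. Nearly all points lie in the quadrants of equal sign.

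The difference between the batches was tested in 1 fit to the 12 libraries. HIF1A itself was the only gene whose response was larger in batch 2 (0.00373% of 26822 genes), by 1.68 ± 0.15 on the log2 scale (edgeR adjusted p = 9.8e-05), and no gene had a smaller response (0.00%). An unadjusted p under 0.05 was found for 1489 genes. DESeq2 called 1 gene in each direction. In batch 1 the replicate numbers pair the libraries, and when batch and number were fitted as a block 12 genes had a larger response in batch 2 (0.0447%) and 24 a smaller one (0.0895%). The genes named next were chosen from these after their values were seen. Smaller in batch 2 were the responses of CEMIP, a hyaluronan-degrading protein (2.32 in batch 2 and 4.40 in batch 1), of TFR2, transferrin receptor 2 (4.55 and 6.08), and of the epithelial adhesion genes ITGB4 (1.34 and 3.03) and LAMA5 (0.52 and 1.63). Larger in batch 2 was that of the interferon-stimulated gene OAS1 (1.43 and 0.24). Batch stands here for extraction, library protocol, sequencing, culture and the HIF1A level of the line together, and these cannot be told apart.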

How the data were processed

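Gene-level read counts were deposited per library by the authors. Per the labels and the study's methods, reads were aligned to hg38 with STAR and counted on GENCODE v32 genes with HTSeq in union mode without strand, using uniquely mapped reads. The submitters' processing notes name STAR 2.7, SAMtools 1.9 and HTSeq 0.11.1. A read that overlaps several genes is not counted, and 739 of the 1123 risen genes have an overlapping annotated gene. The share over all tested genes is not given, so this count does not set the risen genes apart. Reads of the HIF-1α transgene count on HIF1A.

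Rows that name no gene were left out, and the table listed 60609 genes, 60340 of them matched to GENCODE v44 for positions. Comparisons used edgeR 4.0.16 (R 4.3.3) with TMM scaling and the quasi-likelihood F-test, fitted to all 15 libraries of batch 2, after dropping genes whose normalized counts averaged under 0.5, with Benjamini-Hochberg adjustment over all genes tested. Batch 1 was fitted in the same way to its 27 libraries, and the batch difference to 12. Alternatives were DESeq2 1.42.0, median-ratio scaling, no filter, the compared groups alone, other thresholds, a replicate block and leaving out each library. The block is a term for the replicate number. In batch 1 same-numbered libraries deviated together, with correlations of 0.469, 0.272 and 0.728, so there the numbers pair the libraries. Replicates differed by more than sampling noise, with chi-square per degree of freedom of 4.51 to 20.2 within the 4 groups used from batch 2 and 64.1 to 329 within the 2 of batch 1. Intervals and floors cover counting error only. The procedure was tested on simulated data.

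Genes named are members of the gene lists, or lead a ranking of called genes with a mean of at least 50 counts and no overlap between the groups, by log2 change, by counts gained or lost, or by difference from HIF-2α. Other genes are said to be so chosen. The members and lists were chosen with earlier results of these data known.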

Additional observations from a re-analysis of the deposited data

Results flagged for a closer look

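HIF1A was the only gene whose response to the overexpressed subunit differed between the batches without a replicate block. Its log2 change between the HIF-1α line and WT cells was 5.49 in batch 2 and 3.64 in batch 1, each from its own fit, and the difference in the joint fit of both batches was 1.68 (SE 0.15) by edgeR's quasi-likelihood test. HIF1A went from 265, 305 and 314 normalized counts in WT cells of batch 2 to 13790.4, 13126 and 12838 with the transgene. The values were 240, 228 and 261 and 2800, 3089 and 3220 in batch 1, where scaling was separate. All 3 HIF-1α libraries were above all 3 WT libraries in both batches. Groups of 3 libraries are too small for an outlier test, and none was made.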

How the results depend on the processing

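The batch 2 comparison of the HIF-1α line with WT cells gave 1123 higher and 138 lower genes, 1119 and 140 with median-ratio size factors, 1165 and 143 without the filter, 1086 and 154 with only the 6 libraries in the fit, 1114 and 143 with DESeq2, and 989 to 1118 and 119 to 157 without 1 library. Without a fold minimum it gave 2677 and 2238. Fitting the replicate number as a block gave 1167 and 148, and of the named calls the block ended that of MX1 (0.98) and no other. Same-numbered libraries of batch 2 did not deviate together, with correlations of 0.0338, 0.0196 and 0.0034, so the numbers are not taken as pairs there. Leaving out 1 library gave 530 to 604 and 397 to 455 genes against HIF-2α, 112 to 128 and 10 to 24 against the HIF-2α/1α chimera, 539 to 724 and 69 to 122 in batch 1, and 1 and 0 to 1 for the difference between batches. The 21 genes lower than with the chimera became 38 without the filter, 32 with the block, 6 with DESeq2 and 39 at an adjusted p of at most 0.05. The 121 lower genes of batch 1 became 183 at that limit. The difference between batches gave 12 and 24 genes with the block, and 7 lower genes without the filter and 1 with DESeq2. In these cases the cause was not tested. Of 100 named genes that were called, 14 lost the call in at least 1 alternative, each of them without some library and 2 also otherwise (MX1 and IFI44L), and none changed sign. Signs turned for EPO, at -0.04 without WT replicate 1 and -0.80 without HIF-1α replicate 2 (up to 4.41 without 1 library), and for HSD3B7, at -0.048 and -0.01 without WT replicate 1 or 2 (up to 0.16). A floor of 3 counts per library limits what can be said of losses of genes with few counts.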

Other observations

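Interferon-stimulated genes were higher in the HIF-1α line of batch 2. Of 18 tested genes 7 rose and none fell, against 3.91% and 0.480% of all tested genes, and the median log2 change was 0.95. By the adjusted p-value alone 14 were higher and 1 lower (USP18, -0.54), against 9.32% and 7.79% of all tested genes. OAS2, a sensor of double-stranded RNA, rose from 30.3, 17 and 36.3 to 262, 293 and 299 normalized counts (3.38 ± 0.27), and RSAD2, the antiviral enzyme viperin, from 30.3, 42 and 43.3 to 353, 326 and 278 (3.04 ± 0.20). IFI6, a mitochondrial interferon-induced protein, rose from 1055, 881 and 855 to 2397, 2347 and 2459. In these 3 genes the groups were far apart. OAS1 (1.43), OASL (1.29), IFI44L (1.15) and MX1 (1.04) rose less, and IFI44 (0.98) was just under 2-fold, and past it without WT replicate 2 (1.00) or HIF-1α replicate 1 (1.03). DESeq2 called 5 of the 7, without IFI44L (adjusted p = 0.0137) and MX1 (0.0222). MX1 was under 2-fold without WT replicate 1 or 3 (0.99 each) or HIF-1α replicate 3 (0.79), and IFI44L without WT replicate 2 (0.99). In batch 1 only IFI6 (1.06) and RSAD2 (2.5) were called, with or without the replicate block, and the median of the list was 0.57. For the list as a whole the difference between batches was not tested.

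Secretory granule genes gave 3 risen members of 13, PTPRN, PTPRN2 and CPE, against 3.91% of all tested genes, with a median of 0.52. PTPRN2, a relative of PTPRN, rose from 98.6, 71 and 105 to 153, 191 and 231 counts and was at 0.92 without WT replicate 2 or HIF-1α replicate 3. Iron and heme genes gave 1 risen gene of 8, against the same share, the heme oxygenase gene HMOX1, from 1526, 1469.8 and 1923 to 4316, 4115 and 5435, with a median of 0.58. Ferritin heavy chain FTH1 changed by 0.65 and the transferrin receptor gene TFRC by -0.50, both under 2-fold. Of 9 tested genes of epithelial-mesenchymal transition none was called by edgeR or DESeq2, with 4 higher and 1 lower at an unadjusted p under 0.05 and a median of 0.20.

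Among markers of the labelled kidney cells, CDH16, kidney-specific cadherin, rose from 151, 109.8 and 129 to 667, 601 and 482 counts and the water channel gene AQP1 from 6.84, 10.5 and 9.07 to 43.6, 38.1 and 40.1, while PAX2 changed by -0.95. Of 10 tested markers of other cell types 1 rose, against 3.91% of all tested genes. It was ACTA2, a smooth muscle actin that cultured cells also express, from 192, 169 and 189 to 585, 567 and 602. Of all 12 markers 10 had a mean under 10 reads in both groups. By chromosome, the median log2 change of genes with a mean of at least 50 counts lay between -0.15 on chromosome 12 and 0.08 on chromosome 14.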
